A study of Apis mellifera with 8 samples.

Results

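Among the heads of 4 worker honey bee larvae, 72 genes followed the hexamerins, the storage proteins of the larval blood: they were at least 4 times as high in each of 96hW heads 2, 3 and 4 as in 96hW head 1. They were chosen by these worker values alone, out of 9161 genes that could be paired with a transcript, 7106 of which had a mean of at least 2.5 CPM in heads 2, 3 and 4. CPM is the summed estimated count of a gene, scaled so that all paired genes of a head add up to 1000000. All 4 hexamerin genes (Hex70a, HEX70b, Hex70c and Hex110) met the same limits and were left out of the count. Since worker values picked the genes, their differences among worker heads, and those between castes that rest on them, are given as a description with no support drawn from them. The queen heads (96hQ) took no part in the choice.

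The samples were heads of individual female larvae of Apis mellifera taken 96 h after hatching, 4 of each caste, with 1 head per library. Workers developed in the frames of hives, whereas queens were reared by grafting larvae into queen cups, so that caste goes together with diet and rearing. A head here is the front end of the larva, which can hold brain, glands, antennal tissue, trachea, cuticle, silk gland openings and some fat body, so a library is a mixture of tissues. The RNA was poly(A)-selected and sequenced in paired, strand-specific reads, from which the authors estimated counts per transcript with kallisto.

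The fat body of an insect larva combines the tasks of liver and adipose tissue. In a larva that is still feeding it releases hexamerins into the blood, where they wait as a store of amino acids for the pupa, along with lipid carriers and the esterase that breaks down juvenile hormone. Vitellogenin, the yolk precursor, is also a fat body product. Juvenile hormone in turn is among the signals that set queens and workers apart.

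Estimated counts summed to between 19139730 and 23344818 per library, and 78.1% to 81.0% of them fell on paired genes. 96hW head 1 had the smallest total and stood apart from the other worker heads in the members by choice, but also in genes that were not chosen. All 5 muscle troponin genes past the level minimum were higher in head 1 than in each of heads 2, 3 and 4, and of 7105 tested genes past the level minimum, 4147 were higher in head 1 than in each of the others and 1065 were lower. CPM is a share of a fixed total. The hexamerins took 1.23% of the paired counts in 96hW head 1 and 9.39% to 11.3% in the other worker heads. A larger share there lowers the CPM of all other genes, so part of the excess in head 1 follows from the hexamerins and members. How large that part is was not tested. Counting error matters only for the genes with few counts.

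In all, the 72 members took 0.322% of the paired counts in 96hW head 1 and 2.20%, 2.58% and 2.51% in 96hW heads 2, 3 and 4. Their summed level was 3223 CPM in head 1 and 22024, 25829 and 25113 CPM in heads 2, 3 and 4, a mean of 24322 ± 2022 (SD, n = 3 heads) and 7.55 times head 1. The hexamerins summed to 12319 CPM in head 1 and to 93868, 107469 and 112863 CPM in the others, a ratio of 8.50. Thus a worker head with few hexamerin transcripts also had few transcripts of the members, as the choice required. In whole heads, fewer cells of a tissue and less RNA per cell cannot be told apart.

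In this sum the queen heads, which did not enter the choice, lay closer to 96hW head 1 than to the other worker heads. The members summed to 3273, 6606, 6639 and 5725 CPM in 96hQ heads 1, 2, 3 and 4, a mean of 5561 ± 1583 (SD, n = 4 heads). That mean is 1.73 times 96hW head 1, and the mean of 96hW heads 2, 3 and 4 is 4.37 times the queen mean. The hexamerins behaved in the same manner, at 13781, 31688, 23047 and 24441 CPM in the queen heads. 96hQ head 1 was the lowest of the queen heads in both sums and, for the members, closest to 96hW head 1. LOC406147 alone makes up much of the worker sum. Without it the queen mean was 5514 CPM, 2.73 times the 2019 CPM of 96hW head 1, which lay below each queen head. Heads 2, 3 and 4 averaged 14580 CPM, 2.64 times the queen mean. The nearness of queens to head 1 in the full sum thus rests on this 1 gene, and without it the queens lay about midway in fold.

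**Figure D1:**
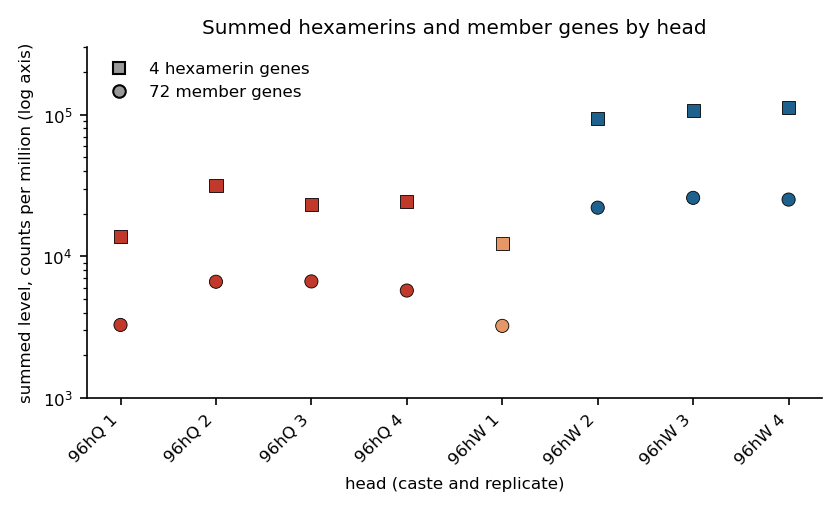
Summed level in CPM (log axis) of the 4 hexamerin genes (squares) and the 72 members (circles) in each head, queens in red, 96hW head 1 in orange and 96hW heads 2, 3 and 4 in blue, with 1 point per head. The members run from 3273 to 6639 CPM in queen heads, 3223 CPM in 96hW head 1 and 22024 to 25829 CPM in the other worker heads.

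The sum hides a wide range among the genes. The ratio of the queen mean to the mean of 96hW heads 2, 3 and 4 ran from 0 to 10.2 over the members, with a median of 0.334. In 28 members the queen mean was under 0.25 of the level in 96hW heads 2, 3 and 4, in 31 it was between 0.25 and 1, and in 13 it was above that level. The queen mean was below even 96hW head 1 in 15 of the 72. The mean of 96hW heads 2, 3 and 4 over head 1 had medians of 8.91, 6.84 and 7.08 in these 3 classes. The choice set a limit on this fold in every class, and the same mean enters the queen ratio, so nothing is read from the medians. The position among worker heads that the choice set went together with very different levels in queens.

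**Figure D2:**
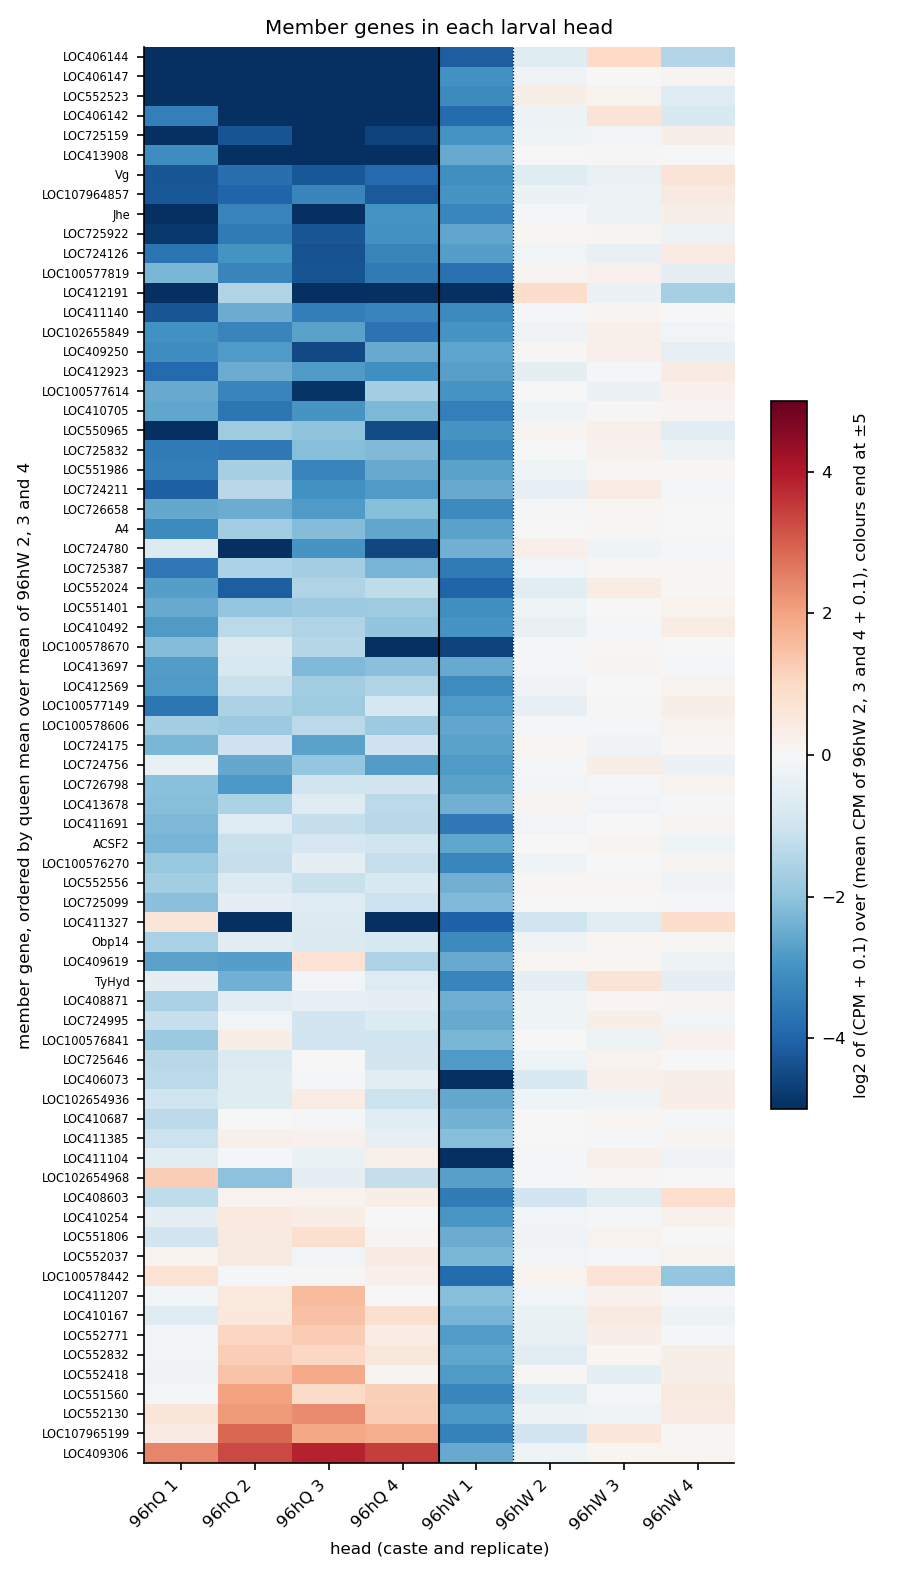
Level of each of the 72 members in each head as the log2 ratio of CPM + 0.1 to the mean of 96hW heads 2, 3 and 4 + 0.1, with genes ordered by the ratio of the queen mean to that mean and colours ending at ±5. The column of 96hW head 1 is blue throughout by choice, while the queen columns pass from blue at the top (28 members under 0.25) to red at the bottom (13 members above 1).

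**Figure D3:**
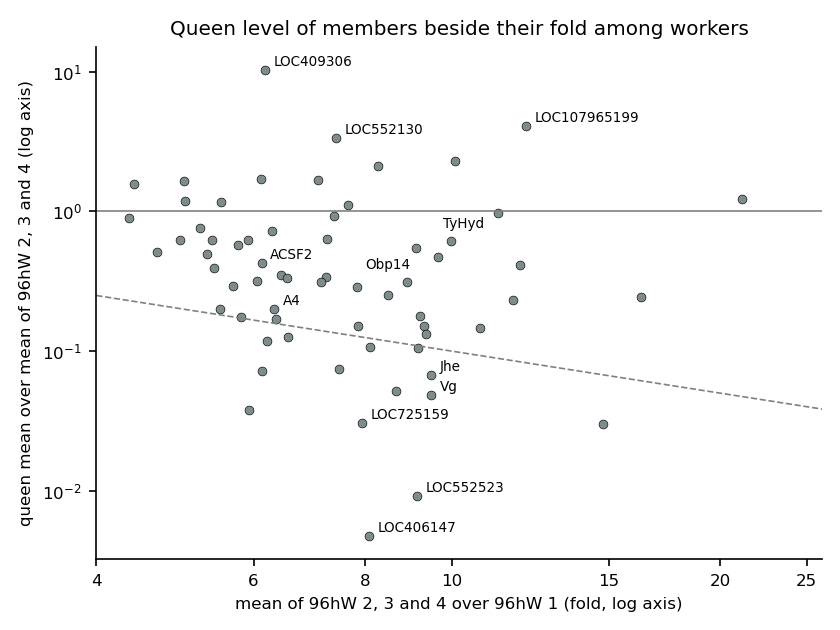
Ratio of the queen mean to the mean of 96hW heads 2, 3 and 4 against the fold of that mean over 96hW head 1, both on log axes, with 1 point for each of the 65 members that have at least 3 counts in head 1 and a queen level above 0. The solid line marks equal levels in queens and 96hW heads 2, 3 and 4, the dashed line equal levels in queens and 96hW head 1, and the ratio spans 0.0048 (LOC406147) to 10.2 (LOC409306).

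Only 6 of the 72 members have a symbol beyond a locus identifier, and 3 of these, A4, Jhe and Vg, encode proteins that insects secrete into the blood, where the fat body is a known source. A4, an apolipophorin-III-like carrier of lipids in the blood, had 190 CPM in 96hW head 1 and 1194, 1235 and 1171 CPM in heads 2, 3 and 4. The queen heads had 131, 358, 270 and 196 CPM of it, so the levels of head 1 fell inside the queen range and those of the other workers above it. The queen mean, 239 ± 97.6 CPM (SD, n = 4), was 0.199 of the mean of 96hW heads 2, 3 and 4.

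Jhe, juvenile hormone esterase, which degrades juvenile hormone in the blood, had 76.2 CPM in 96hW head 1 and 668, 605 and 897 CPM in the other worker heads. In queen heads 1, 2, 3 and 4 it had 12.5, 71.3, 21.7 and 90.6 CPM. The esterase varied 7.25-fold among queens, and 96hW head 1 lay between their highest levels. Its queen mean of 49.0 ± 37.9 CPM (SD, n = 4) was 0.068 of the mean of 96hW heads 2, 3 and 4.

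Vg, vitellogenin, was the least abundant of the named members. Its CPM was 0.736 in 96hW head 1 and 4.54, 5.48 and 10.9 in heads 2, 3 and 4. All queen heads were below every worker head, at 0.269, 0.425, 0.280 and 0.384 CPM, which correspond to 5 to 8 estimated counts per head. The vitellogenin level of heads 2, 3 and 4 was thus 20.6 times that of queens, and its highest value was in 96hW head 4.

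ACSF2, an acyl-CoA synthetase of the family that activates fatty acids, had 9.57 CPM in 96hW head 1 and 60.2, 65.0 and 50.8 CPM in the others. The queen heads had 11.7, 26.8, 32.4 and 29.6 CPM, all above head 1 and below the other worker heads. Obp14, an odorant-binding protein gene, was the third most abundant member by CPM in heads 2, 3 and 4. It had 261 CPM in 96hW head 1, 2095, 2566 and 2476 CPM in heads 2, 3 and 4, and 766, 1626, 1443 and 1360 CPM in queens. The queen mean was 0.546 of the mean of 96hW heads 2, 3 and 4 and 4.98 times head 1, so that Obp14 was lowest in head 1 by a wide margin.

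TyHyd, tyrosine hydroxylase, makes the DOPA from which insects derive dopamine and the precursors of cuticle tanning. It had 25.5 CPM in 96hW head 1, 183, 393 and 187 CPM in heads 2, 3 and 4, and 185, 48.0, 230 and 164 CPM in queens. Here 96hQ heads 1 and 3 lay within the range of 96hW heads 2, 3 and 4, and 96hQ heads 2 and 4 lay below it. Its spread within heads 2, 3 and 4 (SD 120 CPM) was also large beside their mean of 255 CPM.

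**Figure D4:**
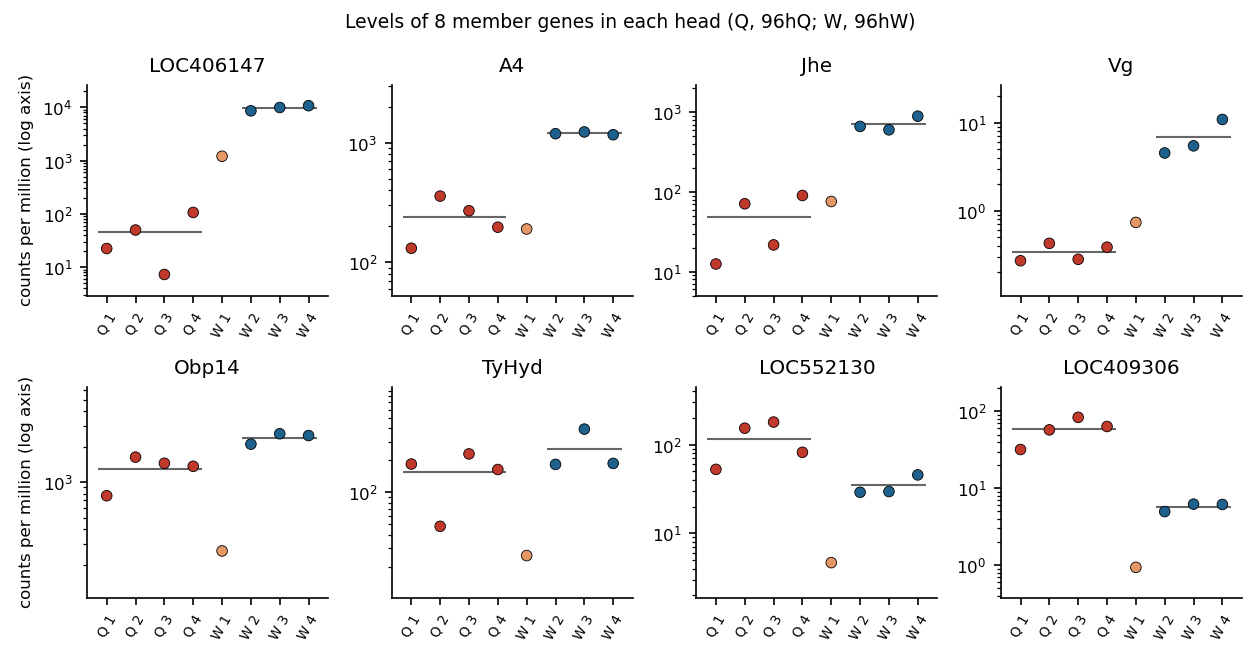
CPM (log axis, its range set per gene) of 8 members in each head, with queens (Q) in red, 96hW head 1 in orange and 96hW heads 2, 3 and 4 in blue, and lines at the queen mean and at the mean of 96hW heads 2, 3 and 4. The 4 panels of the top row have queen means of 0.0048 (LOC406147), 0.199 (A4), 0.068 (Jhe) and 0.049 (Vg) of the latter mean, whereas Obp14 and TyHyd are at 0.546 and 0.616 and LOC552130 and LOC409306 at 3.36 and 10.2.

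Most of the abundance of the group belonged to genes without a name or a description in the table used here. LOC406147 was the most abundant member both by CPM and per length. It had 22.4, 49.7, 7.27 and 106 CPM in the queen heads, 1204 CPM in 96hW head 1 and 8590, 9917 and 10720 CPM in heads 2, 3 and 4. It was thus higher in 96hW head 1 than in any queen head, and heads 2, 3 and 4 averaged 210.0 times the queen mean.

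On the scale of TPM, the deposited measure per transcript length, LOC406147 had a mean of 15813 TPM in 96hW heads 2, 3 and 4, ahead of Obp14 at 8103 TPM, A4 at 2768 TPM and LOC409250 at 2276 TPM. In queen heads the order of the means on that scale was another: Obp14 led with 3996 TPM, followed by A4 with 501 TPM, LOC411385 with 249 TPM and LOC409250 with 248 TPM, while LOC406147 had 69.4 TPM. Obp14 was hence the most abundant of the 5 in queens.

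Of the other abundant members, LOC409250 had 281, 344, 106 and 429 CPM in queens, 394 CPM in 96hW head 1 and 2561, 2939 and 1831 CPM in heads 2, 3 and 4. LOC411140 had 43.1, 153, 77.7 and 84.8 CPM in queens, 92.3 CPM in head 1 and 795, 920.0 and 828 CPM in the others. For both, 96hW head 1 was inside the queen range and heads 2, 3 and 4 lay above it. LOC552024 had the widest gap to head 1 among the 20 most abundant members, with 29.2 CPM there against 320, 611 and 496 CPM in the other workers and 70.2, 27.1, 165 and 199 CPM in queens.

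The remaining genes among the 20 most abundant had means between 185 and 675 CPM in 96hW heads 2, 3 and 4. The queen mean was 0.151 to 0.177 of that level for LOC550965, LOC551986 and LOC724211, and 0.231 to 0.294 of it for LOC725387, LOC551401 and LOC413697. It was 0.516 to 0.977 of it for LOC725099, LOC409619, LOC408871, LOC411385 and LOC408603. LOC551806, at 1.17, was the only gene of these 20 with a higher mean in queens.

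A small set of members was far lower in queen heads than in 96hW heads 2, 3 and 4. Of these, LOC406144 and LOC552523 had estimates close to 0 in queens. LOC406144 had 0 counts in all 4 queen heads, 0.335 CPM in 96hW head 1 and 4.85, 14.9 and 2.65 CPM in heads 2, 3 and 4. With 3 counts per library as the limit that a count of 0 allows, the lowest of heads 2, 3 and 4 was at least 15.8-fold higher than the queen heads. LOC552523 had 0.943, 0.431, 0.535 and 0 CPM in queens against 5.70 CPM in 96hW head 1 and 63.8, 59.6 and 33.0 CPM in the others.

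LOC406142 had 6.14 CPM in 96hQ head 1 and 0.425, 0.671 and 0.879 CPM in 96hQ heads 2, 3 and 4, beside 4.55 CPM in 96hW head 1 and 56.1, 106 and 39.8 CPM in heads 2, 3 and 4. LOC725159 had 2.86, 6.69, 1.51 and 5.27 CPM in queens, 16.9 CPM in head 1 and 115, 122 and 166 CPM in the rest. These genes, with LOC406147, are the 5 with the lowest ratio of queens to 96hW heads 2, 3 and 4, at 0.030 or less. LOC406142 is the only one of them in which 96hW head 1 overlapped the queen range.

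In the opposite direction, a few members were highest in queens. LOC409306 had 32.0, 57.6, 83.8 and 63.7 CPM in the queen heads, 0.937 CPM in 96hW head 1 and 4.98, 6.22 and 6.16 CPM in heads 2, 3 and 4. LOC552130 had 52.7, 153, 180 and 82.0 CPM in queens, 4.68 CPM in head 1 and 29.1, 29.6 and 45.7 CPM in the others. In both genes every queen head was above every worker head.

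LOC107965199 (queen mean 4.06 times the mean of 96hW heads 2, 3 and 4), LOC551560 (2.30 times) and LOC552418 (2.11 times) complete the 5 highest ratios. LOC107965199 had 8.47, 47.3, 24.2 and 22.7 CPM in queens, 0.522 CPM in 96hW head 1 and 3.20, 9.21 and 6.57 CPM in heads 2, 3 and 4, so 96hW head 3 overlapped the lowest queen. These genes share the position of head 1 among workers with A4 and Jhe, but not the level in queens.

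Across all members, 96hW head 1 was below every queen head in 39 of 72, above every queen head in 9 and within the queen range in 24. Over all 8156 genes tested, head 1 was below every queen head in 17.3% and above every queen head in 38.7%. 96hW heads 2, 3 and 4 were all above every queen head in 45 members, with 15.5% of all genes tested, and all below in 2, with 14.8% of all genes. The other 25 members overlapped. All 4 worker heads were above every queen head in 9 members (LOC406147, LOC552523, LOC725159, LOC725922, LOC413908, LOC724126, LOC406144, LOC107964857 and Vg), against 13.4% of all genes, and below in 2 (LOC409306 and LOC552130), against 10.4% of all genes. Worker values entered the choice, which fixes part of these counts, and nothing is read from them.

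Within the queen caste the members were not level. 96hQ head 1 was the lowest queen head in 44 of 72 members (61.1%), compared with 22.3% of all genes tested. Heads 2, 3 and 4 were the lowest in 10, 9 and 9 members (13.9%, 12.5% and 12.5%). Over all genes tested their shares were 10.6%, 59.7% and 7.36%, so that 96hQ head 3 was most often the lowest there. 96hQ head 1 also had the lowest hexamerin sum, and worker values alone had chosen the genes. Of the single hexamerins, Hex70a and HEX70b were lowest in 96hQ head 1. Hex70c and Hex110 were lowest in 96hQ head 3, at 1326 and 2686 CPM, against 1571 and 3799 CPM in head 1. The highest queen head was 96hQ head 2 in 28 members (38.9%), compared with 47.1% of all genes. The order depended on the class of gene: 96hQ head 1 was the lowest in 12 of the 28 members with a queen ratio under 0.25, in 21 of the 31 between 0.25 and 1, and in 11 of the 13 above 1. With 4 heads of 1 caste these counts hold no test between animals.

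Of the 65 members with at least 3 counts in every queen head, the highest queen head exceeded the lowest by 1.42-fold (LOC100578606) to 36.8-fold (LOC724780), with a median of 3.04-fold. The spread was wide at low and at high levels: after LOC724780 came LOC406147, the most abundant member, at 14.6-fold, and LOC409619, with up to 308 CPM, varied 11.1-fold. LOC724780 had 7.81 CPM in 96hQ head 1 and 0.212, 1.51 and 0.439 CPM in heads 2, 3 and 4. LOC100577614, which had under 3 counts in 96hQ head 3 and is not among the 65, ranged from 0.028 to 1.07 CPM among queens.

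Further members of that kind, LOC412191, LOC411327 and LOC100578670, had estimates near 0 in some queen heads and clear counts in others. LOC412191 had 1.44 CPM in 96hQ head 2 and under 1 estimated count in each other queen head. LOC411327 had 6.46 and 2.53 CPM in 96hQ heads 1 and 3 and under 1 count in the other queen heads. LOC100578670 had between 0.036 and 2.5 CPM. The error of the kallisto estimates, which divide reads among similar transcripts, was not measured.

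A total of 6 members had fewer than 3 counts in 96hW head 1, and their fold over it is a lower bound set with 3 counts per library. LOC406073 had 0 counts there, 15.2, 31.1 and 31.4 CPM in heads 2, 3 and 4 and 10.2, 17.1, 24.1 and 18 CPM in queens. It was at least 75.8-fold higher in the lowest of the other worker heads. LOC411104, with under 1 estimated count in head 1, had 9.82, 12.5 and 9.39 CPM in heads 2, 3 and 4, at least 46.8-fold higher, and 7.38, 9.81, 8.44 and 12.6 CPM in queens. The bounds for LOC100578670, LOC100577819, LOC411327 and LOC412191 were 20.1, 10.6, 10.1 and 6.45. LOC406073 and LOC411104, each with 1 paired transcript, thus had an estimate near 0 in a single head out of 8. Unpaired transcripts enter no gene sum, so whether the genes were absent from that head was not tested.

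In the comparison of castes by edgeR's quasi-likelihood test over all 8156 genes, 277 genes (3.4%) were higher in 96hW and 425 (5.21%) in 96hQ at an adjusted p under 0.01. Among the 72 members, all of which were tested, 5 passed as higher in 96hW and 1 as higher in 96hQ, while 31 had an unadjusted p under 0.05, a share close to that of all genes (3342 of 8156). The log2 fold change of queens over workers was negative in 55 members and in 4023 of the 8156 genes, with a median of -1.25 over members and 0.00 over all genes. 96hW head 1 was picked to differ from its caste, which widens the spread that the test measures against, and the other worker heads were picked to be high, so the counts are a description. LOC406144 passed the filter of 5 counts in 4 libraries through worker heads alone.

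On the log2 scale, LOC406147 differed by -7.42 between queens and workers (SE 1.10), at an adjusted p of 0.00412 by edgeR. The other calls toward workers were LOC552523 at -6.34 (adjusted p = 0.00448), LOC725159 at -4.72 (adjusted p = 0.00489), LOC725922 at -3.46 (adjusted p = 0.00853) and Vg at -3.99 (SE 0.77, adjusted p = 0.00978), all from edgeR. LOC409306 was the call toward queens, at 3.71 (SE 0.56, adjusted p = 0.00421). All 6 had worker and queen heads that did not overlap, as did 13.4% (workers above) and 10.4% (workers below) of all genes tested. The calls rest on the same values, so this adds no support to them.

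The other named members compared here did not pass. Jhe had -3.57 (adjusted p = 0.0210 from edgeR) and A4 had -1.99 (adjusted p = 0.0400). LOC552130 had 2.12 (adjusted p = 0.0497), ACSF2 -0.87 (adjusted p = 0.289), Obp14 -0.51 (adjusted p = 0.568) and TyHyd -0.29 (adjusted p = 0.804). Without 96hW head 1, the calls toward workers numbered 20 among members and 188 over all genes, compared with 5 and 277 in all heads. Without 96hQ head 2 they were 0 among members and 140 over all genes, and without 96hW heads 2, 3 or 4 they were 0 among members and 56, 42 or 54 over all genes. Without 96hQ head 1, 3 or 4 the members called were 2, 3 or 1 and the genes called 180, 328 or 72.

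The likeness of each member to the summed hexamerins was given as Pearson's r of log2 levels over the 8 heads, which share libraries and include the 4 worker heads used for the choice. The median was 0.840, and 26 members had an r of at least 0.9. The 5 most alike were LOC551401 (r = 0.987), A4 and LOC725387 (each 0.978), LOC410492 and LOC412569 (each 0.977). LOC551401 had 66.4, 102, 110.1 and 113 CPM in queens, 45.4 CPM in 96hW head 1 and 330, 393 and 433 CPM in heads 2, 3 and 4, an order close to that of the hexamerins. LOC409306 was the least alike, with an r of -0.265.

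Among the hexamerins themselves the level in queens also differed, over a narrower range than among the members. The queen mean was 0.069 of the mean of 96hW heads 2, 3 and 4 for Hex70a, 0.104 for Hex110, 0.202 for Hex70c and 0.351 for HEX70b. None of the 4 storage proteins had a queen ratio above 1, as some members had, but 4 genes are too few to compare the shares.

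To see which tissue the members point to, lists of marker genes were set beside them by the ratio of the mean of 96hW heads 2, 3 and 4 to head 1. Over all genes tested past the level minimum the median ratio was 0.911. The fat body list has 8 measured genes, of which the 4 hexamerins and the members A4 and Vg all met the limits of the choice. Their ratios therefore support nothing, and only 2 genes of the list are free of it. Akhr, the receptor for the adipokinetic hormone that mobilises fat, had 1.94 CPM in head 1 and 5.85, 6.5 and 5.93 CPM in the others, a ratio of 3.14, and 4.69 to 7.59 CPM in queens. Tsf1, the iron carrier transferrin, went the other way, with 1289 CPM in head 1, 1117, 1225 and 778 CPM in heads 2, 3 and 4 and 195 to 603 CPM in queens.

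None of the other marker lists with 2 or more genes past the level minimum had a median ratio over 1. The medians were 0.605 for 5 muscle genes, 0.773 for 24 cuticle and epidermis genes, 0.860 for 7 antenna and sense organ genes, 0.874 for 23 neuron genes and 0.923 for 4 head gland genes. In the antenna list Obp14 was the only member (9.11), and Obp13 followed with a ratio of 4.94. The oenocyte marker Cyp4g11, an enzyme of cuticle hydrocarbon synthesis, had a ratio of 6.53 that rested on 96hW head 3 (80.3 CPM against 4.75, 5.79 and 6.97 CPM in heads 1, 2 and 4). The hemocyte marker PPO, prophenoloxidase, had 0.257, and the 1 midgut gene past the minimum 0.466. All 4 silk fibroin genes were under the level minimum, and no gene was measured for the corpora allata or the Malpighian tubule. The link of the members to the fat body thus rests on the known source of the hexamerins, A4 and Vg, while the 2 fat body markers outside the choice, Akhr and Tsf1, differed in direction among worker heads. These lists do not settle which tissue the members come from.

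**Figure D5:**
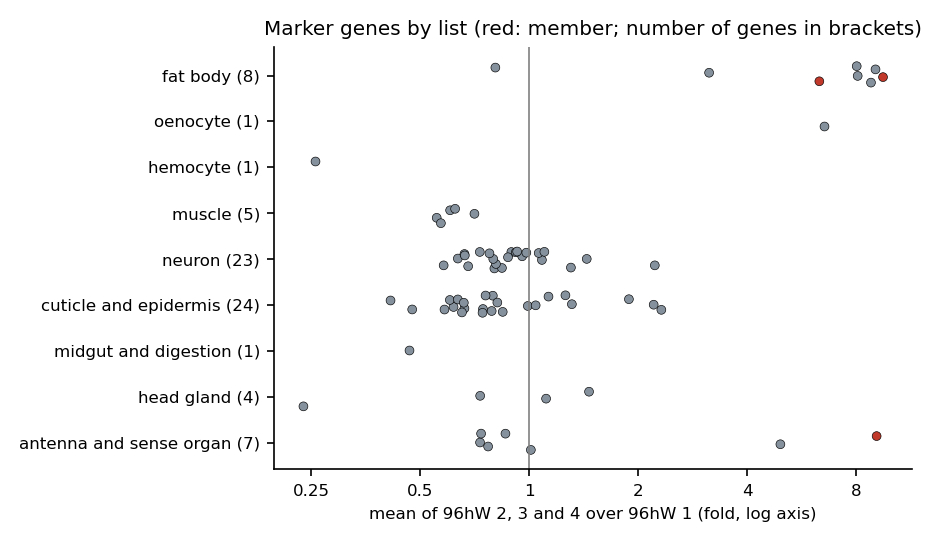
Ratio of the mean of 96hW heads 2, 3 and 4 to 96hW head 1 (log axis) for each marker gene past the level minimum, by list, with members in red, other genes in grey and the number of genes in brackets (points are spread vertically for legibility). In the fat body list the 6 genes at 6.33 to 9.49 are the hexamerins, A4 and Vg, which met the limits of the choice, and the other points are Akhr at 3.14 and Tsf1 at 0.807, while all 5 muscle genes lie left of 1.

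Muscle transcripts moved the other way across heads. The troponins, parts of the calcium switch of muscle, summed to 5440 CPM in 96hW head 1 and 3576, 3363 and 3179 CPM in heads 2, 3 and 4. In queens they summed to 5420 CPM in 96hQ head 1 and 2379, 2508 and 3825 CPM in heads 2, 3 and 4. The heads with the lowest member sum of each caste, 96hW head 1 and 96hQ head 1, were therefore the heads with the highest troponin sum of each caste. Whether a different share of tissues in these heads has a part in the levels of the members was not tested.

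Other pathways of the fat body and its hormones were represented by few genes. Of the 2 juvenile hormone genes measured, Jhe did not pass, and Kr-h1, a transcription factor induced by juvenile hormone, was higher in 96hQ (log2 fold change 1.91, adjusted p = 0.00978 from edgeR). Kr-h1 had a ratio of 1.35 between 96hW heads 2, 3 and 4 and head 1, far from the limit for members. Both lipid and sterol carriers measured, A4 and Vg, were members. In the lists for ecdysone signalling (5 genes), insulin and TOR (2 genes) and carbohydrate metabolism (1 gene) no gene was a member or passed between castes, and their median ratios were 0.976, 0.966 and 1.78. Of 8 detoxification genes, none was a member, and 1 of 7 tested, GstS4, a glutathione transferase, was higher in 96hQ. Their median ratio, over the 7 past the level minimum, was 2.36. Of the 6 humoral immunity genes kept, none was a member and none of 5 tested passed, with a median ratio of 1.39 over 4 genes. The planned list also named LOC406142 and LOC406144, which are members. They were left out because the reference table does not describe them.

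By type, 68 of the 72 members (94.4%) are protein-coding, compared with 86.4% of all paired genes, and 4 are long non-coding RNAs (5.56%, compared with 11.0%). A single paired transcript stands for 53 of them (73.6%, compared with 61.2%). Some members lie side by side in the gene order of the Amel_HAv3.1 assembly. The long non-coding RNA LOC107964857 lies between HEX70b and Hex70c, and its levels were 0.216 to 0.504 CPM in queens, 0.669 CPM in 96hW head 1 and 4.67, 4.85 and 7.89 CPM in heads 2, 3 and 4. Compared with its neighbours HEX70b and Hex70c, with queen ratios of 0.351 and 0.202, it was lower in queens, at 0.052. LOC100577614 lies 1 gene away from Vg, and LOC102654968 and LOC102654936 are neighbours.

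The neighbours LOC102654968 and LOC102654936 differed in queens. LOC102654968 had 12.7 CPM in 96hQ head 1 and 1.22, 3.92 and 2.31 CPM in the other queen heads, and LOC102654936 had 3.72, 4.94, 9.90 and 3.51 CPM. Among workers they were alike, at 0.736 and 1.20 CPM in head 1 and 5.16 to 5.65 and 6.5 to 9.67 CPM in heads 2, 3 and 4.

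The fold limit of 4 cut through a continuous range. Just inside it were LOC410167 (smallest fold over 96hW head 1 of 4.00), LOC411385 (4.03), LOC411207 (4.07), LOC552832 (4.14) and LOC100576841 (4.2). Just outside were LOC102655088 (3.89), LOC410550 (3.86), LOC410614 (3.84), LOC411893 (3.80) and LOC410878 (3.73). Of the 5 just inside, LOC410167, LOC411207 and LOC552832 were higher on average in queens than in 96hW heads 2, 3 and 4. Of the 5 just outside, LOC410614 had 10.1 to 28.8 CPM in queens, 18.4 CPM in 96hW head 1 and 70.9 to 128 CPM in heads 2, 3 and 4, whereas LOC410550 had 62.7 to 183 CPM in queens and 68.6 to 86.7 CPM in those worker heads.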

How the data were processed

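The authors estimated counts and TPM per transcript with kallisto, whose version is not given in the sources used here. The deposited estimated counts of 28739 transcripts per library are not normalized between libraries, and the deposited TPM are scaled to a fixed sum by the authors' tool. Through RefSeq accessions, without regard to version (1449 transcripts had the same one), 17723 transcripts (61.7%) were paired with 9161 genes of a reference table (Amel_HAv3.1, used for names and gene order only). The 11016 unpaired transcripts enter no gene sum. The table gives no gene descriptions, so genes named LOC have no role here.

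Members and gene lists were chosen with earlier results of these data known. Genes were named by rule: members with a symbol, the 20 most abundant, the 5 highest and lowest queen ratios, the 5 widest queen spreads, the 5 nearest either side of the fold limit, the 5 most like the hexamerins (log2 of CPM + 0.5) and neighbours. LOC406073, LOC411104 and other genes given for a count were added after their values were seen, as were LOC100578606, LOC725922 and Obp13. From the humoral immunity list, LOC406142 and LOC406144, members without a description, were dropped. The symbols Per and dl, which are ambiguous, were dropped from the lists as well. Planned sequence descriptions were not made.

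Gene sums were rounded and tested with edgeR 4.0.16 (R 4.3.3, TMM, at least 5 counts in at least 4 of 8 libraries, caste as the only term, Benjamini-Hochberg adjustment, threshold 0.01). The fit was tested on simulated data. Alternatives were DESeq2 1.42.0, its size factors, limma 3.58.1 on log2(TPM + 1), other filters, thresholds and scalings, a replicate block, and fits without each library in turn. The scalings of the queen ratio and of the order of queen heads, and the ratio without each queen head, were added after seeing the data. No pair of libraries was alike within counting noise. Heads are separate animals, and the spread between them also holds dissection and library preparation.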

Additional observations from a re-analysis of the deposited data

Results flagged for a closer look

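Among the 69 members with at least 10 counts in a queen head, 7 had 1 queen head far from the other 3. The limit used is passed by about 1 in 20 groups of 4 when the groups are independent. The members were all read from the same 4 queen heads and are not independent. That rate is therefore no measure of chance here, and no excess is read from the 7. LOC408871 had 187 CPM in 96hQ head 1 and 390 to 428 CPM in the others, and LOC408603 had 88.9 CPM in 96hQ head 1 and 244 to 260 CPM in the others. 96hQ head 1 is also the queen head with the lowest sums of members and of hexamerins. In 3 members the same head was instead the highest: LOC406142 had 6.14 CPM there (0.425 to 0.879 CPM in the others), LOC413908 had 1.89 CPM (0.165 to 0.336 CPM) and LOC724780 had 7.81 CPM (0.212 to 1.51 CPM). LOC409619 had 308 CPM in 96hQ head 3 and 27.7 to 62.9 CPM in the others. LOC412191 had 1.44 CPM in 96hQ head 2 and under 1 estimated count in the others.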

How the results depend on the processing

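The count of members by the limits was 72 and ranged from 55 (fold of at least 5) to 104 (fold of at least 3), with 71 when all transcripts formed the total, 80 with TMM scaling, 88 on TPM sums (64 of them shared), 81 and 65 with minimum levels of 1 and 5 CPM, and 77 to 81 without 96hW replicate 2, 3 or 4. In the comparison of castes, 5 members and 277 of all genes were higher in 96hW, compared with 21 and 862 by DESeq2, 21 and 993 at a threshold of 0.05, and 0 to 20 and 42 to 328 with 1 library left out. There the members counted 20 without 96hW head 1 (188 over all genes) and 0 without 96hQ head 2 or without 96hW head 2, 3 or 4. Higher in 96hQ were 1 member and 425 of all genes, compared with 2 and 1040 by DESeq2, 2 and 1196 at a threshold of 0.05, and 0 to 1 and 100 to 446 with 1 library left out (0 without 96hQ head 4 or 96hW head 2, 3 or 4). With the replicate block 0 members passed in either direction, against 0 genes higher in 96hW and 10 in 96hQ over all genes. Same-numbered heads had correlations of 0.136, 0.006, -0.055 and -0.044 in their deviations from the caste means. Unlike-numbered heads had -0.126 to 0.137, so these values show no pairing by number. Whether heads shared a hive, day or batch was not tested. The median log2 fold change of members ran from -1.56 to -0.88 with 1 library left out, and was -0.96 on log2(TPM + 1), where that of all genes was -0.14. The queen sum was 5561 CPM, and 7366 on the other unit, TPM. TyHyd ran from -0.66 to 0.29 with 1 library left out and changed sign, to 0.03 without 96hQ head 2 and 0.29 without 96hW head 3. The 6 members with a call lost it in 43 of 78 alternative values, and each passed in only 1 to 4 of the 8 fits without a library. All 78 kept their direction, with log2 fold changes of -8.22 to -7.07 for LOC406147 and 3.37 to 3.92 for LOC409306, but as little as -0.98 for Vg (on log2(TPM + 1)). Of 78 values for the 6 genes without a call, 3 gained one and 2, both of TyHyd, changed sign. 96hQ head 1 was the lowest queen head in 43 members with TMM scaling (28.7% of all genes) and 45 on TPM (22.0%), and the median queen ratio stayed between 0.307 and 0.373. The causes of these shifts were not tested. Depth limits the genes of a few CPM, such as Vg, LOC406144 and LOC412191.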

Other observations

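The opposite order among worker heads was rare. At 4-fold or more, and with at least 2.5 CPM in 96hW head 1, 2 of 9161 genes were higher there than in each other worker head. Genes below that level in head 1 were not counted. Apid1, an apidaecin antibacterial peptide gene, had 8.72 CPM in head 1, 0.391, 0.513 and 0.167 CPM in heads 2, 3 and 4 and at most 0.550 CPM in queens. LOC107964982 had 5.22 CPM in head 1, 0.809, 0.285 and 1.15 CPM in the others and 0.216 to 3.3 CPM in queens.

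Of the 11016 transcripts that were not paired with a gene, 115 met the same limits as the members, by CPM of each transcript. Some of them met the fold limit only because head 1 and another worker head were both at 0. For example, XR_407460.2 and XM_016913120.1 had 0 CPM in 96hW heads 1 and 2. The 115 are therefore not all higher in each of heads 2, 3 and 4. The most abundant, XM_016914217.1, had 50.3 CPM in 96hW head 1, 548, 581 and 970.0 CPM in heads 2, 3 and 4 and 15.9, 83.4, 18.9 and 56.8 CPM in queens. XM_016914750.1 had 60.3 CPM in head 1, 619.8, 318 and 741 CPM in the others and 698, 233, 54.8 and 382 CPM in queens. The unpaired transcripts carry no gene name here, and whether some of them are forms of the member genes was not tested.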
